A study of Mus musculus with 4 samples.

Results

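The genes for 6 S100 proteins and 3 antimicrobial proteins, S100a8, S100a9, S100a4, S100a6, S100a10, S100a11, Lcn2, Camp and Slpi, were followed in 4 mouse RNA libraries that carry the label of skin regulatory T cells. They were taken by gene name from a set list, and all 9 were found among the 55487 genes measured. The mice had psoriasiform dermatitis, induced on the shaved back by 60 mg a day of a cream with 5% imiquimod, a TLR7 agonist. Treated mice also received 3 exposures to narrow-band ultraviolet B (UVB), and the others received none. There were 2 UVB and 2 non-UVB libraries, numbered 1 and 2 in each group, and the study asked how UVB acts on skin regulatory T cells. The sources used here do not give strain, sex, age, the number of mice per library or the way the cells were isolated. They also do not say that the numbers mark separate animals, so each p-value reflects the spread of these libraries alone, and that spread may be technical.

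S100 proteins are small calcium-binding proteins that work inside cells on the cytoskeleton and on annexins at membranes. S100a8 and S100a9 form calprotectin, which binds zinc and manganese, starves microbes of them and acts as an alarm signal when released. Neutrophils, monocytes and inflamed keratinocytes are its main known sources, and it is a well-known marker of psoriatic epidermis. Lipocalin 2, cathelicidin and the secretory leukocyte protease inhibitor are secreted defence proteins of neutrophils and epithelia, and interleukin-17 is known to induce several of these genes in keratinocytes.

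The 9 genes took 0.965% and 0.687% of the total TPM, the deposited unit scaled to gene length and to 1 total per library, in UVB libraries 2 and 1, and 1.16% and 0.608% in non-UVB libraries 2 and 1. All 7 testable genes separated the libraries numbered 2 from those numbered 1, where 40.9% of all tested genes did. With 2 libraries per group, a gene separated by number cannot also be separated by UVB. The 7 were therefore bound to overlap between UVB and non-UVB, where 32.9% of all tested genes were separated. S100a8, S100a9 and Slpi stood 5.24 to 8.74 times as high in number 2 as in number 1 of the same group, while S100a4, S100a6, S100a10 and S100a11 differed by less. Lcn2 was seen in 1 library and Camp in none. In the limma fit over 10286 genes, no gene passed an adjusted p of 0.05 for UVB or for the number, and 1167 and 1290 genes had an unadjusted p under 0.05.

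The libraries differed along the number and along UVB in ways that touch the results below. The values rested on 2.38 and 2.47 gigabases of sequence in UVB and non-UVB library 2, against 4.20 and 3.41 in UVB and non-UVB library 1. Depth was thus lower in both libraries numbered 2, and its part in the differences along the number was not tested. In the UVB libraries 10227 to 10317 genes reached 1 TPM, against 7825 to 8033 in the non-UVB libraries. In both libraries numbered 1, Foxp3 and Cd4 were lower and Trdc was higher than in both numbered 2, which goes against the label. Of the alpha-beta receptor constant genes, Trac was higher in both libraries numbered 2. Trbc1 and Trbc2 overlapped between the numbers, and Trbc1 was lower in number 2 within each group. Trac had 878 and 2350 TPM in UVB and non-UVB library 2, against 554 and 274 TPM in UVB and non-UVB library 1. Trbc1 had 462 and 830 TPM in UVB and non-UVB library 2, against 809 and 1386 TPM in UVB and non-UVB library 1. Foxp3, the transcription factor that defines regulatory T cells, stood at 19.3 and 19.4 TPM in UVB and non-UVB library 2, against 3.49 TPM in UVB library 1 and a listed 0 in non-UVB library 1. Cd4, the coreceptor of helper and regulatory T cells, had 71.6 and 138 TPM in UVB and non-UVB library 2, against 33.9 and 6.02 TPM in UVB and non-UVB library 1. Trdc, the constant region of the receptor chain that defines gamma-delta T cells, had 71.6 and 48.5 TPM in UVB and non-UVB library 2, against 1184 and 1394 TPM in UVB and non-UVB library 1. The sum of gamma-delta T cell markers was 308 and 178 TPM in UVB and non-UVB library 2, against 9959 and 10273 TPM in UVB and non-UVB library 1. The sum of keratinocyte markers was 6091 and 5314 TPM in UVB and non-UVB library 2, against 758 and 621 TPM in UVB and non-UVB library 1. Haemoglobin genes summed to 117431 TPM in non-UVB library 1 and to between 1529 and 4414 TPM in the other 3 libraries.

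S100a8 (ENSMUSG00000056054, chromosome 3, 90668978 to 90670035, plus strand, GRCm38), one subunit of calprotectin, stood at 1455 TPM in UVB library 2 and 252 TPM in UVB library 1, against 2249 TPM in non-UVB library 2 and 257 TPM in non-UVB library 1. Both libraries numbered 2 were far above both numbered 1, and the UVB and non-UVB groups overlapped. Mean read depth over the gene was 1668 and 480 reads per base in UVB libraries 2 and 1 and 2703 and 408 in non-UVB libraries 2 and 1. Duplicate reads were not assessed, so the number of separate transcripts behind each value is not known. Ranked by TPM among all genes, S100a8 was 74th in UVB library 2 and 740th in UVB library 1, against 44th in non-UVB library 2 and 641st in non-UVB library 1.

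S100a9 (ENSMUSG00000056071, chromosome 3, 90692632 to 90695721, minus strand), the other calprotectin subunit, had 736 and 91.6 TPM in UVB libraries 2 and 1, against 985 and 169.7 TPM in non-UVB libraries 2 and 1. The libraries fell in the same 2 sets as for S100a8. The ratio of S100a8 to S100a9 was 1.98 and 2.76 in UVB libraries 2 and 1, and 2.28 and 1.52 in non-UVB libraries 2 and 1, so S100a8 was the more abundant subunit in every library. The genes lie 22.6 kb apart on opposite strands.

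Slpi (ENSMUSG00000017002, chromosome 2, 164354070 to 164389095, minus strand), an inhibitor of neutrophil elastase and cathepsin G, had 607 and 84.3 TPM in UVB libraries 2 and 1, against 403 and 77.0 TPM in non-UVB libraries 2 and 1. It followed the number as calprotectin did, from another chromosome. Slpi overlaps the microRNA gene Mir7678 on the same strand, which was listed at 104 TPM in non-UVB library 2, at 0.461 TPM in non-UVB library 1 and at 0 in both UVB libraries. The sources used here do not say how reads in the overlap were assigned.

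Promoter sequence from RefSeq (GRCm38.p6) was matched by symbol for 8 of the 9 genes, all but S100a10. The 150 bases before the start annotated in RefSeq are shown for the 3 genes that differed most along the number, 5′ to 3′ on the gene's strand, to set their core elements side by side. Capitals mark the TATA element TATAAA and matches to the C/EBP consensus TTNNGNAAT on either strand. C/EBP factors are known regulators of myeloid and epithelial defence genes. The RefSeq start is the first base of the S100a9 span in the deposited tables, but lies 93 bases inside the span of S100a8 and 32.6 kb inside that of Slpi.
S100a8, chr3:90668921-90669070, plus strand: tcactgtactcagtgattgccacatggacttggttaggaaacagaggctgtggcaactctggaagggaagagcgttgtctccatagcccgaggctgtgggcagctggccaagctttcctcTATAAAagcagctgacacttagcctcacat
S100a9, chr3:90695722-90695871, minus strand: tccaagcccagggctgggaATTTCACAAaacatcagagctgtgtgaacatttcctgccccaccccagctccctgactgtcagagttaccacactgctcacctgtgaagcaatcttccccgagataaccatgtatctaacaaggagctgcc
Slpi, chr2:164356508-164356657, minus strand: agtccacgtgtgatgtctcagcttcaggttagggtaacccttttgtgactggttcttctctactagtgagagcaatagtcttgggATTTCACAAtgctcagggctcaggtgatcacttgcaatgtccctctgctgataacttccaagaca

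S100a9 and Slpi carried the same 9 bases, ATTTCACAA, a reverse-strand match to the C/EBP consensus whose first base lay 131 and 65 bases before the start. Slpi had a second match, TTGAGCAAT, 241 bases before the start, outside the stretch shown, and S100a8 had none in its 300 bases. Such a match was present in 11.4% of the 32544 distinct promoter windows of 300 bases in the table. S100a8 had TATAAA 30 bases before its start and S100a4 had it 31 bases before, a placement (within 40 to 16 bases before the start, gene strand) found in 1.99% of windows. In S100a9 the same 6 letters began at the annotated start itself. The AP-1 consensus TGANTCA was found in S100a11 alone of the 8 genes, at 136 and 38 bases before the start, and is present in 7.79% of windows. The STAT consensus TTCNNNGAA, in 8.33% of windows, was in none of the 8. These matches describe letters in the windows and do not show binding.

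**Figure D1:**
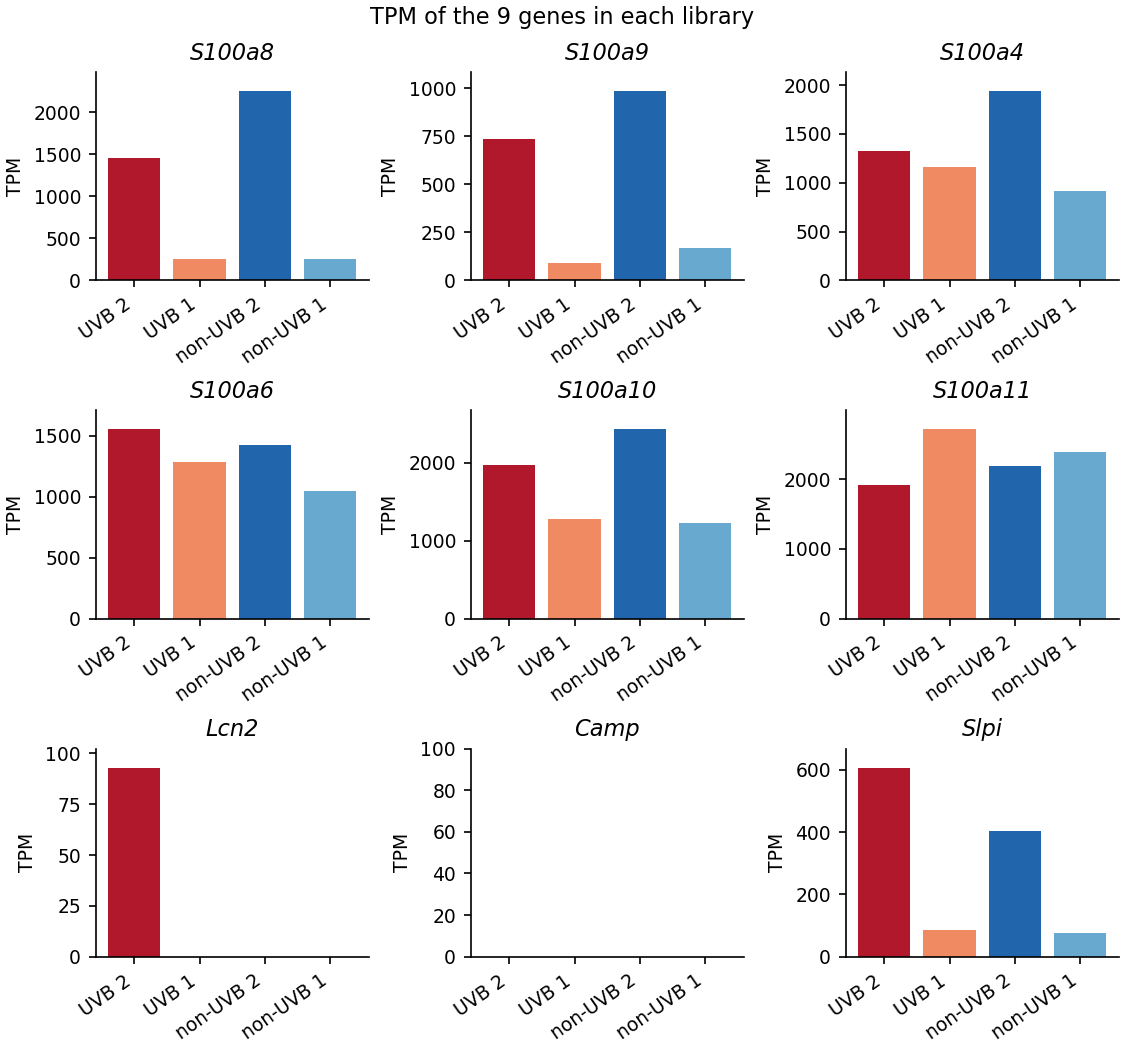
Bars give TPM in each of the 4 libraries (UVB 2, UVB 1, non-UVB 2, non-UVB 1), 1 panel per gene with its own axis from 0. S100a8, S100a9 and Slpi are high in both libraries numbered 2, S100a11 is lowest at 1913 TPM in UVB library 2, Lcn2 shows 1 bar and Camp none.

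Lcn2 (ENSMUSG00000026822, chromosome 2, 32384633 to 32388252, minus strand), which binds bacterial siderophores and so withholds iron, was at 93.1 TPM in UVB library 2 and listed at 0 in UVB library 1 and in both non-UVB libraries. Its mean depth in UVB library 2 was 53.1 reads per base. Camp (ENSMUSG00000038357, chromosome 9, 109847379 to 109849617, minus strand), the cathelicidin gene, was listed at 0 in all 4 libraries. Both fell short of the filter of 1 TPM in 2 libraries and were not tested. Genes that reach 1 TPM in a single library were common, at 1246 and 1240 genes in UVB libraries 2 and 1 and 604 and 509 in non-UVB libraries 2 and 1, so the Lcn2 value is 1 of many of that kind.

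The 4 other S100 genes were high in every library. S100a11 (ENSMUSG00000027907, chromosome 3, 93520488 to 93526287, plus strand), a partner of annexin A1, had 1913 and 2715 TPM in UVB libraries 2 and 1, against 2189 and 2386 TPM in non-UVB libraries 2 and 1. It ranked between 24th and 48th of all genes in the 4 libraries, and it was lower in number 2 than in number 1, opposite to the other 6 tested genes. Its 4 values spanned less than 1.5-fold in either group.

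S100a10 (ENSMUSG00000041959, chromosome 3, 93555080 to 93564643, plus strand), which pairs with annexin A2 at the plasma membrane, had 1978 and 1272 TPM in UVB libraries 2 and 1, against 2430.3 and 1228 TPM in non-UVB libraries 2 and 1. S100a4 (ENSMUSG00000001020, chromosome 3, 90603771 to 90606045, plus strand), which binds non-muscle myosin and is known in memory T cells and myeloid cells, had 1320.3 and 1166 TPM in UVB libraries 2 and 1, against 1938 and 913 TPM in non-UVB libraries 2 and 1. Non-UVB library 2 was the highest library for both genes. The gene Gm42674 overlaps S100a4 on the same strand and was listed at 0 in all libraries.

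S100a6 (ENSMUSG00000001025, chromosome 3, 90612882 to 90624181, plus strand), also called calcyclin, had 1551 and 1286 TPM in UVB libraries 2 and 1, against 1423 and 1049 TPM in non-UVB libraries 2 and 1. It was the member with the smallest relative spread over the 4 libraries apart from S100a11. UVB was higher within each number, by 0.12 log2 in number 2 and 0.29 log2 in number 1.

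The order of the S100 levels changed with the number. In the libraries numbered 1, S100a11 led with 40.03% (UVB) and 39.7% (non-UVB) of the summed TPM of the 6 S100 genes, and S100a8 and S100a9 together made up 5.07% and 7.11%. In the libraries numbered 2, S100a11 made up 21.4% (UVB) and 19.5% (non-UVB), S100a10 made up 22.1% and 21.7%, and S100a8 and S100a9 together made up 24.5% and 28.8%. S100a10 and S100a11 were nearly level there, at a ratio of 1.03 (UVB) and 1.11 (non-UVB), against 0.468 and 0.515 in number 1. S100a4, S100a6 and S100a10 lay between 1166 and 1286 TPM in UVB library 1, and their order varied between libraries.

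**Figure D2:**
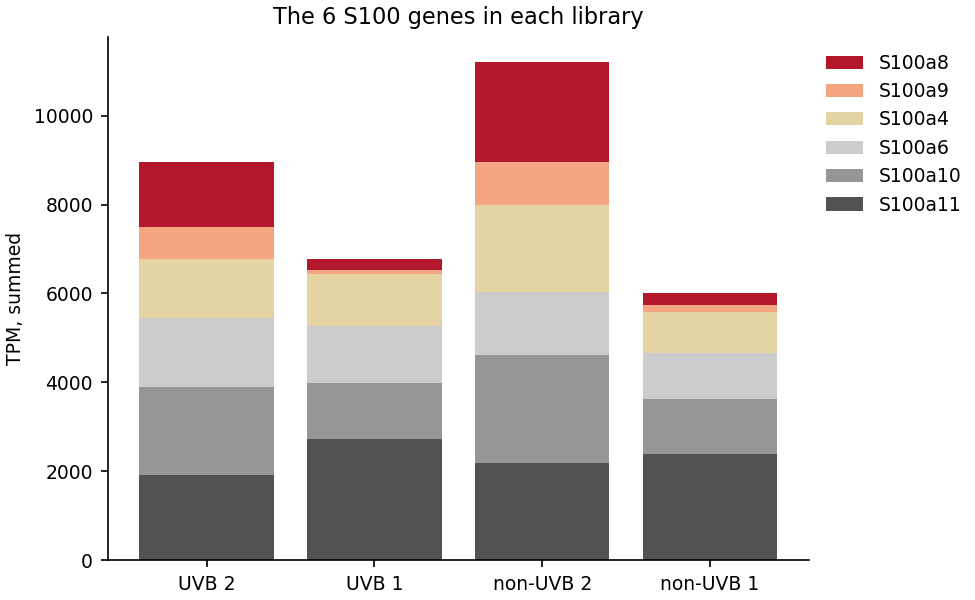
Stacked bars give the summed TPM of the 6 S100 genes in each library, each colour 1 gene. The total is 8955 and 6783 TPM in UVB libraries 2 and 1 and 11213 and 6003 TPM in non-UVB libraries 2 and 1, and the S100a8 and S100a9 segments are visible mainly in the libraries numbered 2.

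By position the 6 S100 genes fell into 2 groups on chromosome 3. S100a4, S100a6, S100a8 and S100a9 lie within 92.0 kb, and S100a11 and S100a10 lie 2.82 Mb further on with 28.8 kb between them. Genes at high levels and genes listed at 0 were interleaved. Of 15 S100 genes of chromosome 3 in the tables, 7 reached 1 TPM in all 4 libraries and 4 were listed at 0 in all of them. S100a5, which sits between S100a4 and S100a6, and S100a7a, which sits between S100a6 and S100a8, were among those at 0.

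**Figure D3:**
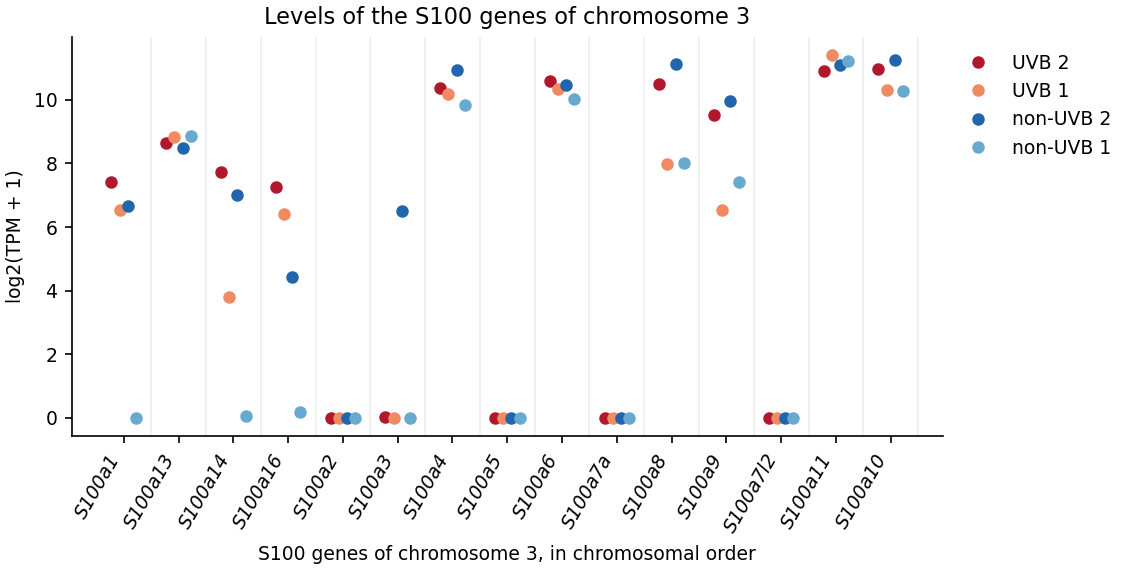
Points give log2(TPM + 1) of the 15 S100 genes of chromosome 3 in chromosomal order (not to distance), 1 colour per library. S100a4, S100a6, S100a10, S100a11 and S100a13 are high in all 4 libraries, S100a8 and S100a9 form an upper pair (number 2) and a lower pair (number 1), and S100a2, S100a5, S100a7a and S100a7l2 are at 0.

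The first comparison asked whether these genes differed with UVB. The estimates, UVB minus non-UVB on the log2(TPM + 1) scale with SE and 2 libraries per group, were -0.33 ± 1.47 for S100a8, -0.65 ± 1.44 for S100a9 and 0.36 ± 1.38 for Slpi. They were -0.10 ± 0.47 for S100a4, 0.21 ± 0.32 for S100a6, -0.12 ± 0.49 for S100a10 and -0.004 ± 0.31 for S100a11. Each had a limma adjusted p of 0.9998 over 10286 genes. None of the 7 had an unadjusted p under 0.05, where 11.3% of all tested genes did, and the background at an adjusted p under 0.05 was 0%. None of the 7 was fully separated between UVB and non-UVB, where 32.9% of all tested genes were. Their separation by number fixed this in advance, so it is no separate result. Among tested genes that average 50 TPM or more, as all 7 do, 28.6% were separated and 2.74% had an unadjusted p under 0.05. The median of the 7 was -0.10 log2, and that of all tested genes was 0.26. The SE of S100a8, S100a9 and Slpi exceeds a change of 2-fold in this fit, which leaves the difference along the number in the spread. With the number as a second term the estimates were the same and the SE fell to 0.30, 0.35 and 0.41 log2, with unadjusted p of 0.360, 0.163 and 0.445 and adjusted p of 0.852, 0.723 and 0.883 in limma. More genes reached 1 TPM in the UVB libraries, as given above, and the part of that gap in these differences was not tested, while all 7 genes reached 1 TPM in every library.

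Within the numbers, S100a8 and S100a9 were lower in the UVB library both times. S100a8 differed by -0.63 log2 in number 2 and -0.03 log2 in number 1, and S100a9 by -0.42 and -0.88 log2. Slpi was higher in the UVB library both times, by 0.59 log2 in number 2 and 0.13 log2 in number 1. S100a4, S100a10 and S100a11 pointed opposite ways in the 2 numbers. These are single pairs of libraries, and the fit with the number as a second term, which tests them together, called none of the 7. The values within number 2 are those without the libraries numbered 1, where Foxp3, Cd4 and Trdc went against the label. Leaving out 1 library leaves the numbers unequal between the groups, so that part of the difference along the number enters the UVB estimate by construction, and the sign of S100a8, S100a9 and Slpi turned. Without UVB library 1 the difference of S100a8 was 0.93 log2 and that of S100a9 0.85 log2, and without non-UVB library 2 they were 1.23 and 0.61 log2. Slpi stood at -0.83 log2 without non-UVB library 1 and at -1.06 log2 without UVB library 2.

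The second comparison set the libraries numbered 2 against those numbered 1, across both groups. S100a8 averaged 1852 ± 561 TPM in number 2 and 255 ± 3.49 TPM in number 1 (SD, n = 2 each), a difference of 2.82 ± 0.31 log2 (SE). S100a9 averaged 861 ± 176 TPM in number 2 and 131 ± 55.2 TPM in number 1, a difference of 2.76 ± 0.44 log2. Slpi averaged 505 ± 144 TPM in number 2 and 80.6 ± 5.18 TPM in number 1, a difference of 2.60 ± 0.38 log2. Each of the 3 had a limma adjusted p of 0.238, above the threshold, with unadjusted p of 0.00103, 0.00386 and 0.00273 from the same fit.

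The other 4 differed less. S100a10 stood at 0.81 ± 0.21 log2 (limma adjusted p = 0.253), S100a4 at 0.63 ± 0.30 (0.5455), S100a6 at 0.36 ± 0.22 (0.6546) and S100a11 at -0.31 ± 0.19 (0.6511). All 7 were separated, where 40.9% of all tested genes were, or 45% of those averaging 50 TPM or more. Of the 7, 6 were higher and 1 lower in number 2, where 22.5% and 18.5% of all tested genes were. S100a8, S100a9, S100a10 and Slpi, 4 of the 7, had an unadjusted p under 0.05 in limma, all higher in number 2. Of all tested genes 12.5% had such a p, 11.6% of those averaging 50 TPM or more, and 5.65% had it with a higher level in number 2, while 0% passed the adjusted threshold. All 7 reached 1 TPM in every library, so the filter did not favour a direction. Their median was 0.81 log2, and that of all tested genes was 0.10. The genes were listed with earlier results of these libraries known, so the counts are a description.

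**Figure D4:**
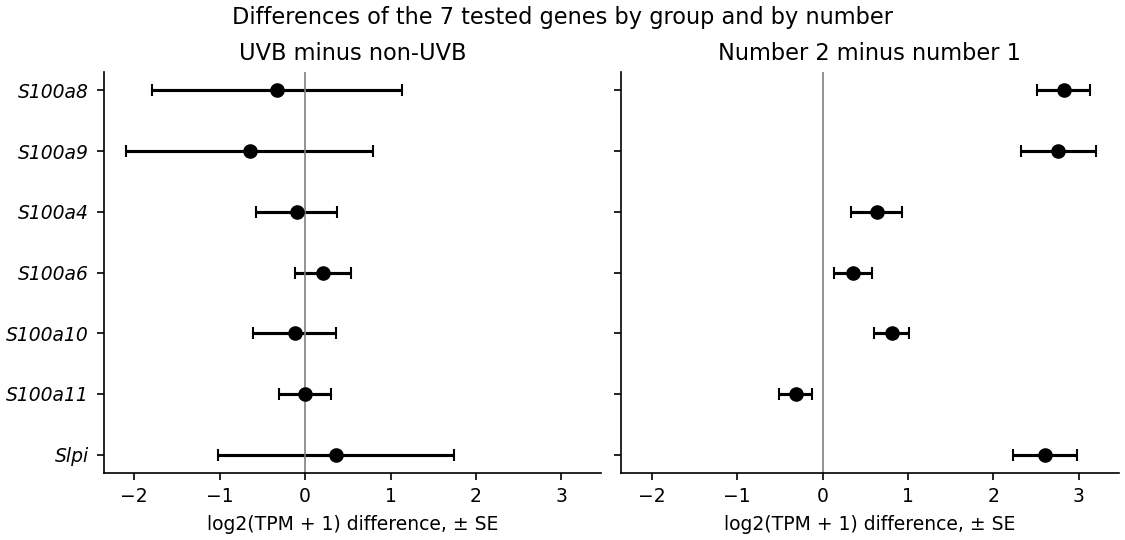
Points give the log2(TPM + 1) difference of the 7 tested genes with its SE as bars, UVB minus non-UVB at left and number 2 minus number 1 at right, on 1 scale. At left all 7 intervals of 1 SE reach across 0, and at right S100a8, S100a9 and Slpi lie between 2.60 and 2.82.

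Markers of the cell types that make these proteins were read in the same libraries. Keratinocyte markers were mostly higher in number 2, as S100a8, S100a9 and Slpi were. Of 20 markers 18 were tested and none passed the adjusted threshold of limma, while 9 had an unadjusted p under 0.05, all higher in number 2, where 5.65% of all tested genes did. Of the 18, 14 were separated, all higher in number 2, where 22.5% of all tested genes were, and the median of the 18 was 3.42 log2. Krt15, Trp63 and Dsg3 passed the filter through the libraries numbered 2 alone, which fixed their direction. Of the 20 markers, 8 reached 1 TPM in all 4 libraries. Krt14, a keratin of basal keratinocytes, had 1232 and 214 TPM in UVB libraries 2 and 1, against 1527 and 101 TPM in non-UVB libraries 2 and 1. Krtdap, a keratinocyte differentiation protein, had 1008 and 274 TPM in UVB libraries 2 and 1, against 605 and 175 TPM in non-UVB libraries 2 and 1. S100a8 stood at 1.18 times Krt14 in both UVB libraries and at 1.47 and 2.54 times Krt14 in non-UVB libraries 2 and 1. S100a9 stood at 0.598 and 0.428 times Krt14 in UVB libraries 2 and 1 and at 0.645 and 1.68 times in non-UVB libraries 2 and 1. Slpi stood at 0.493 and 0.394 times Krt14 in UVB libraries 2 and 1 and at 0.264 and 0.761 times in non-UVB libraries 2 and 1. None of the 3 genes kept 1 ratio to Krt14 over the 4 libraries, and neither did the keratinocyte marker Krtdap. Krtdap stood below Krt14 in both libraries numbered 2 and above it in both numbered 1. S100a11 was 1.55 and 12.7 times Krt14 in UVB libraries 2 and 1 and 1.43 and 23.6 times in non-UVB libraries 2 and 1. The part of keratinocyte RNA in the levels of S100a8, S100a9 and Slpi was not tested.

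Of 20 neutrophil markers 7 were tested. For the number none was separated, where 40.9% of all tested genes were. None had an unadjusted p under 0.05 in limma for the number, where 12.5% of all tested genes had one. By UVB 3 were separated higher and 1 lower, where 32.9% of all tested genes were separated in either direction. Those genes could therefore not be separated by number. For UVB none passed the adjusted threshold, while 3 of the 7 had an unadjusted p under 0.05, all higher with UVB, where 11.3% of all tested genes had such a p in either direction. Those 3 encode receptors of myeloid cells and were chosen after their values were seen. Clec4d had 26.7 and 81.2 TPM in UVB libraries 2 and 1 and a listed 0 in each non-UVB library, with a limma unadjusted p of 0.0095. Clec4e had 149.9 and 107 TPM in UVB libraries 2 and 1, against 0.243 and 5.09 TPM in non-UVB libraries 2 and 1 (limma unadjusted p = 0.0113). Trem1 had 13.9 and 20.1 TPM in UVB libraries 2 and 1, against 0.0629 TPM in non-UVB library 2 and a listed 0 in non-UVB library 1 (limma unadjusted p = 0.0083). The 3 had a limma adjusted p of 0.223 each. Clec4d and Trem1 passed the filter of 1 TPM in 2 libraries through the UVB libraries alone. Their direction was thus fixed by the filter and is no result. The sum of the neutrophil markers was 1493 and 1119 TPM in UVB libraries 2 and 1, against 690 and 1120 TPM in non-UVB libraries 2 and 1, most of it from Il1r2, a decoy interleukin-1 receptor that regulatory T cells are also known to express. Il1r2 had 1152 and 754 TPM in UVB libraries 2 and 1, against 647 and 963 TPM in non-UVB libraries 2 and 1, and the collagenase gene Mmp8 had 138 and 20.5 TPM in UVB libraries 2 and 1, against 0.477 and 121 TPM in non-UVB libraries 2 and 1. Of the 20 markers, 10 were listed at 0 in all 4 libraries, among them the defining Ly6g and Retnlg and the granule genes Elane, Mpo, Ltf and Ngp. The sum of macrophage and monocyte markers was 5722 and 13866 TPM in UVB libraries 2 and 1 and 2097 and 6939 TPM in non-UVB libraries 2 and 1. It was lower in number 2 within each group, and higher with UVB within each number. Since these are bulk samples, more cells of a type and more RNA per cell cannot be told apart.

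**Figure D5:**
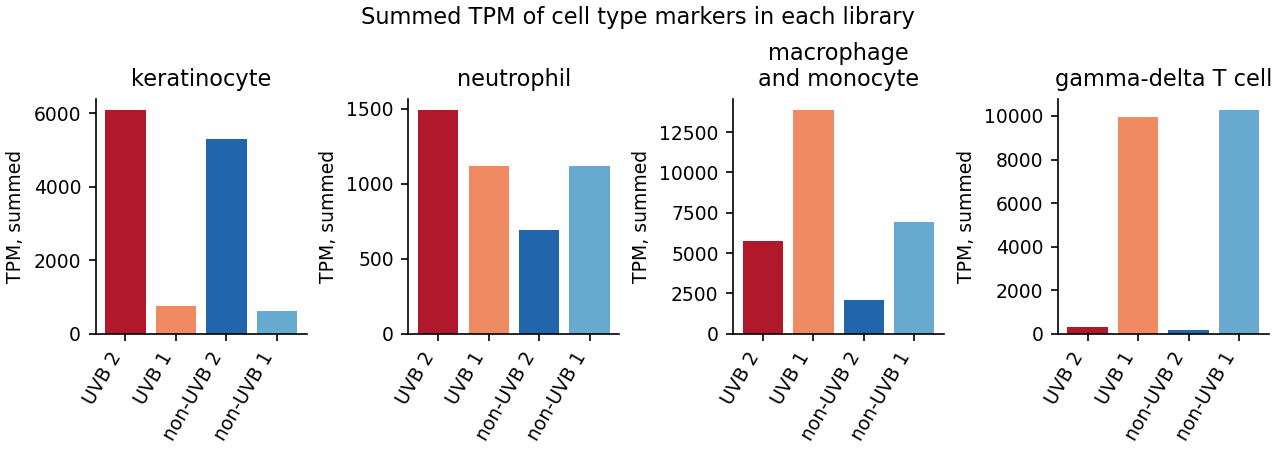
Bars give the summed TPM of 4 lists of cell type markers in each library, each panel with its own axis from 0. Keratinocyte sums are at least 5314 TPM in number 2 and at most 758 TPM in number 1, gamma-delta T cell sums show the reverse, and neutrophil sums lie between 690 and 1493 TPM.

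Other genes with a pattern like that of the members were of several kinds. By Euclidean distance between centred log2(TPM + 1) values over the 4 libraries, among 2577 genes, the nearest to S100a8 were Itgav, an integrin chain (0.38), Srsf10, a splicing factor (0.56), and Tnfrsf18, which encodes the regulatory T cell receptor GITR (0.63). S100a9 lay at 0.62 from S100a8, and Slpi at 0.89. Tnfrsf18 had 1303 and 339 TPM in UVB libraries 2 and 1, against 1769 and 203 TPM in non-UVB libraries 2 and 1. The nearest to S100a9 were Lars2, a mitochondrial leucyl-tRNA synthetase (0.60), the costimulatory receptor Cd28 (0.70) and the metallothionein Mt2 (0.75). Those nearest to Slpi were Mier1 (0.44), the inhibitory receptor Tigit (0.52) and Xlr4b (0.72). Tnfrsf18 and Cd28 are also in the list of CD4 and regulatory T cell markers, whose 14 members did not share 1 direction along the number. Of the 14, 7 were separated with the higher level in number 2 and 2 with the lower, where 22.5% and 18.5% of all tested genes were. None of the 14 passed the adjusted threshold of limma. Cd3g had 848 and 2701 TPM in UVB libraries 2 and 1, against 968 and 2560 TPM in non-UVB libraries 2 and 1, and Cd3e was the other of the 2 lower genes. All 8 gamma-delta T cell markers tested were separated with the lower level in number 2, where 18.5% of all tested genes were. Sox13 and Blk passed the filter through the libraries numbered 1 alone, which fixed their direction. Neighbours were taken for S100a8, S100a9, S100a6, S100a10 and Slpi only, and no keratin was among the 3 nearest to any of them. The distances of the keratins are not given, so a keratin may lie close without being among those 3. Keratinocyte markers were mostly higher in number 2, as given above. For S100a10 the nearest genes were Imp3 (0.10), Ubl5 (0.12) and the skin-homing receptor Ccr8 (0.16). For S100a6 they were the cysteine protease inhibitor Cstb (0.06), the deacetylase Sirt2 (0.11) and the translationally controlled protein Tpt1 (0.13).

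Of the 10 other S100 genes listed, 4 were tested and none passed in either comparison. S100a13, a protein involved in release of leaderless cytokines, had 399 and 453 TPM in UVB libraries 2 and 1, against 359 and 467 TPM in non-UVB libraries 2 and 1, a difference of 0.05 ± 0.36 log2. S100a16 had 153 and 84.7 TPM in UVB libraries 2 and 1, against 20.5 and 0.129 TPM in non-UVB libraries 2 and 1. Its UVB difference of 4.54 ± 1.75 log2 had a limma adjusted p of 0.503. S100a1, known in muscle as a regulator of calcium cycling, had 171 and 92.2 TPM in UVB libraries 2 and 1, against 101 TPM in non-UVB library 2 and a listed 0 in non-UVB library 1, at 3.65 ± 2.50 log2.

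Of 25 other antimicrobial protein genes, 6 were tested and none passed. Their UVB differences were all positive, with a median of 2.53 log2 against 0.26 for all genes, yet 14 of the 25 were listed at 0 in every library. None of the 6 had an unadjusted p under 0.05 in limma for UVB, where 11.3% of all tested genes did. None was separated by UVB, where 32.9% were. Along the number 2 were separated higher and 3 lower, which fixed this for them. Pglyrp1 and Defb6 stood at 0.193 TPM and a listed 0 in non-UVB library 1, and Chil3 at 0.501 TPM in non-UVB library 2. Lyz2, the lysozyme of macrophages and neutrophils, had 1309 and 4391 TPM in UVB libraries 2 and 1, against 216 and 1325 TPM in non-UVB libraries 2 and 1, a difference of 2.16 ± 1.16 log2 (limma adjusted p = 0.752). Its order over the libraries was that of the macrophage and monocyte sums given above, a list that holds Lyz2 itself, and the part of those cells in it was not tested. Lyz1, its intestinal paralog with near-identical sequence, with which reads may be shared, had 12.0 and 184 TPM in UVB libraries 2 and 1, against 2.71 and 19.0 TPM in non-UVB libraries 2 and 1. Wfdc17, a relative of Slpi with a whey acidic protein domain, had 243 and 348 TPM in UVB libraries 2 and 1, against 320 and 95.1 TPM in non-UVB libraries 2 and 1. In this list 4 genes reached 1 TPM in UVB library 2 alone, as Lcn2 did, and they were chosen after their values were seen. Those 4 were the beta-defensin Defb4 at 34.3 TPM, Wfdc12 at 27.1 TPM, Adm at 37.2 TPM and Pglyrp3 at 11.7 TPM. Defb14 reached it in non-UVB library 2 alone, at 120 TPM.

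Receptors and binding partners numbered 21, of which 14 were tested and none passed. The alarmin receptors Ager and Tlr4 were listed at 0 in all 4 libraries. Bsg, which encodes basigin, described as a receptor for S100A9 in human cells, had 1120.3 and 867 TPM in UVB libraries 2 and 1, against 703 and 521 TPM in non-UVB libraries 2 and 1, a difference of 0.70 ± 0.35 log2 (limma adjusted p = 0.708). Anxa2, the partner of S100a10, had 1110.3 and 1487 TPM in UVB libraries 2 and 1, against 1182 and 961 TPM in non-UVB libraries 2 and 1, so that S100a10 stood at 1.78 and 0.855 times Anxa2 with UVB and at 2.06 and 1.28 times without. Anxa1, the partner of S100a11, had 1567 and 649 TPM in UVB libraries 2 and 1, against 642 and 216 TPM in non-UVB libraries 2 and 1, a difference of 1.43 ± 0.78 log2. Ly96, which encodes the Tlr4 coreceptor MD-2, had 0.440 and 29.6 TPM in UVB libraries 2 and 1, against 163 and 120 TPM in non-UVB libraries 2 and 1, a difference of -4.40 ± 1.75 log2 (limma adjusted p = 0.527). Slc22a17, a receptor for lipocalin 2, had 2.28 TPM and a listed 0 in UVB libraries 2 and 1, against 0.046 and 19.2 TPM in non-UVB libraries 2 and 1.

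Of 18 upstream cytokines and regulators, 14 were tested and none passed. Of the 14, 7 were separated with the lower level in number 2 and 2 with the higher, where 18.5% and 22.5% of all tested genes were. Il17f and Il17a, known to induce S100a8, S100a9 and Lcn2 in keratinocytes, were lower in number 2, where S100a8 and S100a9 were higher. Whether these cytokines bear on those levels was not tested. Il17f had 1601 and 13761 TPM in UVB libraries 2 and 1, against 1742 and 14539 TPM in non-UVB libraries 2 and 1, and differed by -3.08 ± 0.15 log2 along the number (limma adjusted p = 0.224). Il17a had 799 and 1995 TPM in UVB libraries 2 and 1, against 904 and 2330 TPM in non-UVB libraries 2 and 1, a difference of -1.34 ± 0.21 log2 along the number (limma adjusted p = 0.238). With UVB the differences were -0.10 ± 1.57 log2 for Il17f and -0.20 ± 0.73 log2 for Il17a. Nfkbiz, which encodes an inhibitor of kappa B family protein that mediates interleukin-17 responses, had 171 and 56.3 TPM in UVB libraries 2 and 1, against 38.8 TPM in non-UVB library 2 and a listed 0 in non-UVB library 1. Its UVB difference was 3.98 ± 2.14 log2 (limma adjusted p = 0.756). Il1a had 3.59 and 25.9 TPM in UVB libraries 2 and 1 and a listed 0 in each non-UVB library, with a limma adjusted p of 0.375. It passed the filter through the UVB libraries alone, which fixed its direction. Traf3ip2, the interleukin-17 receptor adaptor Act1, had 7.26 and 0.021 TPM in UVB libraries 2 and 1, against 39.6 and 53.0 TPM in non-UVB libraries 2 and 1 (limma adjusted p = 0.480). Stat3 had 158 and 111 TPM in UVB libraries 2 and 1, against 155 and 236 TPM in non-UVB libraries 2 and 1.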

How the data were processed

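RNA libraries were prepared with an ultra-low-input SMARTer kit and read as single ends of 100 bp, per the labels' protocols. HISAT2, StringTie and DESeq2 with GRCm38 (mm10) are named without version or role in the submitters' processing notes, while the sources used here do not give strandedness. The authors deposited 1 gene table per library. Per the file headers it holds coverage (mean read depth per base, a signal not scaled to library size), FPKM and TPM, the deposited TPM summing to 1000000 in each library. Rows that share a gene ID were added up before the tables were merged, and all 9 genes had the same coordinates in GENCODE M21. Reads per library were derived from the highest ratio of coverage to FPKM. Whole reads were not recovered, so no count test was run and intervals for counting error are not given.

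Genes that reached 1 TPM in 2 or more of the 4 libraries were tested as log2(TPM + 1), which understates changes of low genes, with limma 3.58.1 in R 4.3.3 using an intensity trend. Group was the only term for UVB and the number the only term for the second comparison. P-values were adjusted by Benjamini-Hochberg over 10286 genes, with a threshold of 0.05, and the fit was tested on simulated data. For each result, 14 alternatives changed the pseudocount, filter, unit, scaling, spread model or libraries, or added the other factor. The rule for named genes took the 9 genes, the 2 most abundant and up to 2 per direction with the smallest p of each of 4 pathway lists, the 2 most abundant of each of 8 marker lists and the 3 nearest patterns, of which some markers are given only in their sums. Of the rest, those named are markers, neighbours or genes whose choice is stated. The 9 genes and the lists were chosen with earlier results of these data known. Markers of the lists not described above summed, in UVB libraries 2 and 1 and then non-UVB libraries 2 and 1, to 8334, 8028, 4411 and 6275 TPM for dendritic cells, to 7764, 7716, 11093 and 9017 TPM for CD4 and regulatory T cells, and to 0.0113, 24.0, 56.4 and 55.7 TPM for fibroblasts.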

Additional observations from a re-analysis of the deposited data

Results flagged for a closer look

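S100a4, S100a10 and S100a11 had UVB differences of opposite direction in the libraries numbered 2 and 1. S100a4 differed by -0.55 log2 in number 2 and 0.35 log2 in number 1, a gap of -0.9053. S100a10 differed by -0.30 log2 in number 2 and 0.05 log2 in number 1, a gap of -0.3471. S100a11 differed by -0.19 log2 in number 2 and 0.19 log2 in number 1, a gap of -0.3806. With 1 library per group and number these gaps were not tested.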

How the results depend on the processing

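No gene was called for UVB at an adjusted p under 0.05 by limma under any of the 14 alternatives, with 157 to 1344 genes at an unadjusted p under 0.05. For the number, 12 genes were called among genes at 1 TPM or more in all 4 libraries and 13 after quantile normalization, none of them among the 9 genes, and 0 under the other 12. All 98 values of the 7 tested genes along the number kept their direction and stayed short of the threshold. S100a8 ranged from 2.51 to 3.14 log2, S100a9 from 2.32 to 3.20 and Slpi from 2.31 to 2.90, with a lowest adjusted p of 0.080, 0.161 and 0.161.

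Of 98 values for UVB, 15 turned sign and none passed. Median scaling gave -0.40 for S100a6 and -0.25 for Slpi, with the median of all genes at -0.35 in place of 0.26, and quantile normalization gave 0.13 for S100a11 with that median at -0.19. Leaving out 1 library gave S100a6 values from -0.011 to 0.43, S100a11 from -0.26 to 0.25, Slpi from -1.06 to 1.78, S100a8 from -1.89 to 1.23, S100a9 from -2.15 to 0.85, S100a10 from -0.62 to 0.37 and S100a4 from -0.64 to 0.44. Leaving out 1 library makes the numbers unequal between the groups, so these values take in part of the difference along the number by construction. For the scalings the cause was not tested.

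With the replicate block, 0 genes were called in either comparison, and the UVB difference of S100a8 was -0.33 ± 0.30 log2 and that of S100a9 -0.65 ± 0.35 log2, with adjusted p of 0.852 and 0.723. Libraries of 1 number deviated together with a correlation of 0.165 over 10286 genes, and with 2 pairs the numbers are not shown to pair the libraries. With 2 libraries per group, the median SE over all genes was 1.12 log2.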
